A study of Mus musculus with 9 samples.

Results

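The transcripts described here encode 10 subunits of AP-1 and its close relatives: Fos, Fosb, Fosl2, Jun, Junb, Jund, Atf3, Batf, Maff and Mafk. They were taken by gene symbol, not by any measured value. The 10 genes were among 19057 genes with a probe on the array and had 14 probes between them. All 10 had a probe that passed the filter on dim probes and entered the fit with 14640 features. The arrays held RNA from B lymphocytes purified from spleens of C57BL/6 mice aged 8 weeks. Cells were left untreated (labelled control) or were treated with anti-IgM, a goat F(ab')2 antibody that crosslinks the B cell antigen receptor, at 2.5 µg/ml for 1 h or 2 h. Each of these 3 groups had 3 Illumina bead arrays. The treatment protocol also names IL-4 (5 ng/ml) and CD40L (200 ng/ml), the labels do not say which cells received them, and the series text gives 3 h in place of 1 and 2 h. The labels name no separate animals or cultures behind the 3 arrays of a label, so p-values measure only the spread between these arrays, which may be technical. In RNA from a bulk sample, fewer cells of a type and less RNA per cell cannot be told apart.

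AP-1 is a family of transcription factors that bind DNA as pairs joined through a leucine zipper. FOS proteins need a JUN partner, JUN proteins can pair with each other or with FOS, ATF and BATF proteins, and the small MAF proteins pair with each other or with CNC and BACH factors. In lymphocytes, Fos, Fosb, Junb and Atf3 are known as immediate-early genes, switched on by kinases of the MAPK cascade and by calcium without new protein synthesis. Their transcripts are known to be short-lived.

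Intensities are the deposited linear values, and a value above about 6.44 was above the upper 0.05 tail of the noise on its array. Log2 levels are log2 of the intensity plus 50, which understates the change of dim probes. Several arrays stood apart from others of their label. Judged by the 10 AP-1 genes, 2 h replicate 2 lay closest to untreated replicate 1, at a root mean square distance of 0.18 on the log2 scale. Untreated replicate 2 lay closest to 2 h replicate 1 (0.22) and 1 h replicate 2 to untreated replicate 2 (0.56), while 1 h replicates 1 and 3 lay closest to each other (0.26). The same held over all features, where 2 h replicate 2 and untreated replicate 1 had r = 0.994 across genes, which are not independent replicates. Egr1, an immediate-early gene outside the family, showed the same division. It read 1054, 8548 and 876 on untreated arrays, 10635, 4017 and 12904 on 1 h arrays, and 6918, 1279 and 7311 on 2 h arrays. Untreated replicate 2 and 2 h replicate 2 thus each had values like those of the other label. Whether their labels were exchanged was not tested, and it bears on every untreated and 2 h mean and on every difference below. Groups follow the deposited labels, and results are also given without the arrays labelled replicate 2.

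Markers of B cells other than Pax5 were plain on every array, and 6 of 6 listed genes with a probe were above noise on at least 3 arrays. Their summed intensity was 11789 to 16582 untreated, 6506 to 14418 at 1 h and 9419 to 15483 at 2 h, lowest on 1 h replicate 2. Most of it came from Cd79b (2450 to 9360), Blk (2425 to 3906) and Fcer2a (1241 to 3139), while Pax5 read -1.19 to 15.9. T cell markers were near noise (2 of 6 above it on at least 3 arrays, summed intensity -6.09 to 40.3). Neutrophil markers (7 of 7) summed to 930.1 to 5311 untreated, 729 to 4185 at 1 h and 1099 to 3826 at 2 h. Erythroid markers (3 of 4) ranged over 74.4 to 2385 untreated, 75.7 to 2672 at 1 h and 225 to 2627 at 2 h in summed intensity. Most of that sum was Hba-a1 (65.9 to 2644), while Alas2 and Slc4a1 read at most 21.4 and 15.8. The neutrophil and erythroid sums were both highest on untreated replicate 3, 1 h replicate 3 and 2 h replicate 1. Fos had intensities of 14.7, 249.7 and 117 on these arrays. Macrophage markers (5 of 7) summed to 178 to 721 over the 9 arrays, mostly from Lyz2 and Adgre1, which ran differently. Lyz2 (84.1 to 427) was highest on untreated replicate 3, 1 h replicate 3 and 2 h replicate 1, like the neutrophil sum. Adgre1 (6.20 to 288) was highest on 2 h replicate 2. Csf1r, C1qb and Vcam1 read at most 33.6, 21.8 and 27.4. NK cell markers (2 of 4) summed to 701 to 1473, nearly all of it from Prf1 (688 to 1460). Klrd1 read 11.1 to 26.2, and Ncr1 and Klrb1c did not pass the filter on dim probes. Dendritic cell markers (2 of 5) summed to 40.6, 145 and 38.2 on untreated arrays, 81.2, 80.3 and 74.9 on 1 h arrays, and 137, 85.5 and 226 on 2 h arrays, so untreated replicate 2 was high and 2 h replicate 2 low for their label, as for Fos and Junb. That split came from Zbtb46, which read 2.51, 110.4 and -1.09 on untreated arrays and 95.8, 5.94 and 95.3 on 2 h arrays. Siglech, the other one above noise on at least 3 arrays, did not share it. It read 45.5, 42.1 and 52.5 on untreated arrays and 44.0, 85.7 and 125 on 2 h arrays. The B cell sums ran opposite to Zbtb46 on untreated replicate 2 and 2 h replicate 2, at 16387, 11789 and 16582 untreated and 10709, 15483 and 9419 at 2 h. The listed B cell genes were divided. Among untreated arrays, Cd79b, Ms4a1 and Cd22 were lowest on replicate 2, as was the dim Pax5 (3.48, below noise). Blk (3162, 3906 and 2761) and Fcer2a (2579, 3117 and 2543) were highest there. The part of other cell types in the AP-1 values was not tested.

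The promoters of Fos, Fosb, Junb and Atf3 are shown because a short element, the core of the cAMP and ATF response element, recurs in all 4, and that of Jun because its differences from untreated had the opposite sign. RefSeq (GRCm38.p6) gave windows from 250 bases before to 50 bases after the transcript start for all 10 genes, 12 windows in all, since Maff has 3 starts. Capitals mark TGACG on either strand and TGACATCA, a variant of the AP-1 site that lies in the Jun promoter.
Fos promoter, chr12:85473640-85473939, plus strand: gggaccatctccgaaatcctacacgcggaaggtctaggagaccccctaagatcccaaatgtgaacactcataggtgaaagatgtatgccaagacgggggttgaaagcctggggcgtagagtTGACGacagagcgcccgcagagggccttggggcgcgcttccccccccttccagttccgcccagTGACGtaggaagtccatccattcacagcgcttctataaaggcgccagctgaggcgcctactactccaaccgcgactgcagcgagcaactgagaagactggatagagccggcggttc
Fosb promoter, chr7:19309996-19310295, minus strand: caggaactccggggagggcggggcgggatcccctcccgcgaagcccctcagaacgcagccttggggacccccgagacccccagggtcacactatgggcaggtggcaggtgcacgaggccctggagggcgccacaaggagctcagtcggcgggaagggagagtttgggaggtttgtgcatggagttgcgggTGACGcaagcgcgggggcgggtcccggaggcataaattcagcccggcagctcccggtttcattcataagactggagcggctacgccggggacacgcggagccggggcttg
Junb promoter, chr8:84978699-84978998, minus strand: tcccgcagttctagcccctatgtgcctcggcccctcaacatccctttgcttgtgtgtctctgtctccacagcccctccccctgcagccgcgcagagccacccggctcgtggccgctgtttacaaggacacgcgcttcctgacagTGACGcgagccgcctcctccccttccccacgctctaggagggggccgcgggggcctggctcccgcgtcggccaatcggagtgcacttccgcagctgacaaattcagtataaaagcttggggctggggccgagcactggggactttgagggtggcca
Atf3 promoter, chr1:191183284-191183583, minus strand: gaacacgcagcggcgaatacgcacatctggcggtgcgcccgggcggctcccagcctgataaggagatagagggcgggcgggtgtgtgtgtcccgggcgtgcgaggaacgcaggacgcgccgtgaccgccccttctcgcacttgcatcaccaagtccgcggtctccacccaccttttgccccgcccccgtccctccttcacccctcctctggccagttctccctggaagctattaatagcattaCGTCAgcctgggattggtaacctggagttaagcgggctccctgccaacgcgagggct
Jun promoter, chr4:95052173-95052472, minus strand: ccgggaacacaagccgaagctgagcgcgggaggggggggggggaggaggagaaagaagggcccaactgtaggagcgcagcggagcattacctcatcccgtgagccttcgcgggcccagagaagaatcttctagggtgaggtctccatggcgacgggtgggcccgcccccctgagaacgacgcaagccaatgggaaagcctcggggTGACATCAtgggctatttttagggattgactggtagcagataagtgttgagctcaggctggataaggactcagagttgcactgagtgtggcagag
The core TGACG occurred in at least 1 window of 7 of the 10 genes: Fos, Fosb, Junb, Atf3, Batf, Maff and Mafk. By window, 8 of the 12 windows of the 10 genes held it, against 20.8% of all 32851 promoter windows. TGACG was absent from the windows of Fosl2, Jun and Jund. Fosl2 had the largest difference of the 10 at 1 h against untreated (1.98). Jun and Jund, which also lack it, had -0.60 and -0.02. Among genes that hold TGACG, Fos, Fosb, Junb, Atf3 and Maff had 1.40, 1.62, 1.88, 1.79 and 0.69. Batf and Mafk, which hold it too, had -0.02 and 0.09, and Mafk was close to noise. Any relation of the element to these differences was not tested. In Fos the core began at -129 and -66 relative to the start, in Fosb at -60, in Junb at -106 and in Atf3, on the opposite strand, at -7. The full palindrome TGACGTCA, present in 1.79% of windows and counted in the TGACG matches as well, occurred in Maff, at -29 of its second start (chr15:79347270-79347569, plus strand). TGACATCA was in 3.62% of windows and occurred in Jun at -45 and in the third window of Maff. The consensus AP-1 site TGANTCA occurred in 0 of the 12 windows, against 7.81% of all windows. A match of letters is a description and not a measured binding site.

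**Figure D1:**
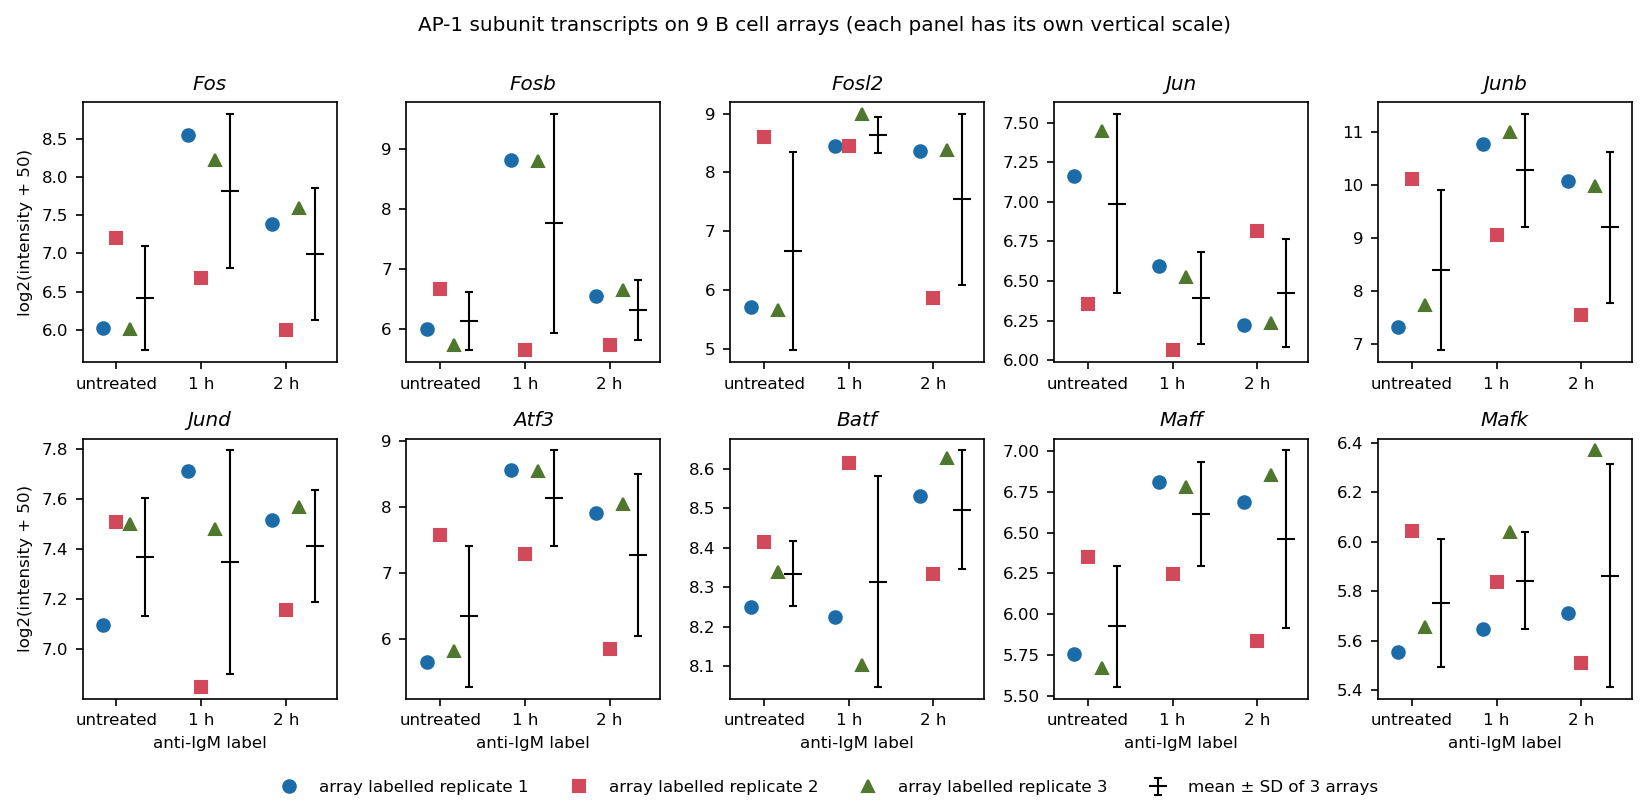
Log2(intensity + 50) of the 10 AP-1 genes on each array, in the groups untreated, 1 h and 2 h of anti-IgM; the symbol gives the replicate number of the label and the bar the mean ± SD of 3 arrays. For Fos, Fosb, Junb, Atf3 and Maff the arrays labelled replicates 1 and 3 were high at 1 h and low untreated, and the array labelled replicate 2 lay apart from them in all 3 groups.

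Fos encodes the founding FOS protein, which has no strong DNA binding of its own without a JUN partner. Untreated replicates 1, 2 and 3 read 15.1, 97.3 and 14.7, the 1 h arrays 326, 52.2 and 249.7, and the 2 h arrays 117, 14.0 and 144, in the same order of replicates used throughout. The highest 2 arrays were 1 h replicates 1 and 3, the lowest 3 were untreated replicates 1 and 3 and 2 h replicate 2, and the groups overlapped. The log2 difference was 1.40 ± 0.61 at 1 h against untreated (SE, n = 3 arrays per group, unadjusted p = 0.0481, adjusted p = 1 by limma), with a 95% interval of 0.01 to 2.79. Leaving out 1 array moved it between 1.04 (without 1 h replicate 1) and 1.98 (without 1 h replicate 2). At 2 h it was 0.58 ± 0.61, with 0.28 without 2 h replicate 3 and 1.08 without 2 h replicate 2.

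Fosb encodes a FOS protein with a transactivation domain like that of Fos. Its untreated arrays read 13.9, 52.2 and 3.20, its 1 h arrays 401, 0.421 and 398, and its 2 h arrays 44.0, 3.57 and 51.1. It was above noise on 6 of the 9 arrays, stood far above the rest on 1 h replicates 1 and 3, and was below noise on 1 h replicate 2. The log2 difference was 1.62 ± 0.79 at 1 h against untreated (2.68 without 1 h replicate 2, 1.10 without 1 h replicate 1) and -1.44 ± 0.79 at 2 h against 1 h (-2.49 without 1 h replicate 2, -0.91 without 1 h replicate 1). At 2 h against untreated it was 0.18 ± 0.79, and -0.02 without untreated replicate 3.

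Fosl2 encodes Fra-2, a FOS relative that lacks the strong activation domain of Fos. Its probe read 2.16, 339.6 and 0.692 on untreated arrays, 301, 301 and 460.1 on 1 h arrays, and 281, 8.33 and 285 on 2 h arrays. Here 1 h replicate 2 was as high as 1 h replicate 1, unlike in Fos and Fosb. The array labelled untreated replicate 2 was above all 2 h arrays, and the other untreated arrays were below noise. Every 2 h array was below every 1 h array, a pattern that 4.43% of all features shared. The log2 difference was 1.98 ± 0.91 at 1 h against untreated, and it moved to 1.48 when untreated replicate 3 was left out and to 2.95 when untreated replicate 2 was. At 2 h against untreated it was 0.88 ± 0.91, and 0.39 and 1.86 with these arrays left out in turn. The other probes of Fosl2 were dim, at -1.29 to 28.3 and 2.77 to 16.7 over the 9 arrays, with differences of 0.09 and -0.05 at 1 h against untreated. With the mean of the 3 probes in place of the brightest, Fosl2 differed by 0.67 at 1 h and 0.40 at 2 h against untreated, and by -0.27 at 2 h against 1 h.

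Junb encodes a JUN protein that pairs with FOS proteins and with BATF in lymphocytes. Its untreated arrays read 109.7, 1062 and 164, its 1 h arrays 1698, 482 and 1993, and its 2 h arrays 1023, 138 and 963. The probe was above noise on all 9 arrays, 3 of which lay at or below 164 and 5 at or above 963, with 1 h replicate 2 between them. The low arrays were untreated replicates 1 and 3 and 2 h replicate 2. The log2 difference was 1.88 ± 0.94 at 1 h against untreated, between 1.35 without untreated replicate 1 and 2.75 without untreated replicate 2, and 0.81 ± 0.94 at 2 h against untreated, between 0.27 and 1.67 without the same arrays. A second Junb probe was above noise on 0 arrays and was not used.

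Jun, whose protein is the classical partner of Fos, was lower by mean at 1 h and 2 h than untreated. It read 93.6, 31.8 and 124 on untreated arrays, 46.6, 16.8 and 41.9 on 1 h arrays, and 24.8, 62.7 and 25.2 on 2 h arrays. The 3 arrays on which Junb was lowest were the 3 on which Jun was highest, while on 1 h replicate 2, the lowest array for Jun, Fos, Fosb and Junb were below their means as well. The log2 difference was -0.60 ± 0.30 at 1 h against untreated (adjusted p = 1 by limma), -0.91 without untreated replicate 2 and -0.37 without untreated replicate 3. At 2 h against untreated it was -0.56 ± 0.30 (adjusted p = 0.908), and -0.88 and -0.34 without the same arrays. The sign was negative in both comparisons under each alternative run.

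Jund encodes the JUN protein known for steady expression in resting cells. Untreated arrays read 86.6, 132 and 131, 1 h arrays 159.7, 65.2 and 128, and 2 h arrays 133, 92.4 and 139, lowest on 1 h replicate 2. The groups overlapped, and the log2 differences were -0.02 ± 0.23 at 1 h against untreated (95% interval -0.56 to 0.52) and 0.04 ± 0.23 at 2 h against untreated (-0.49 to 0.58). Intervals of this width do not show that its level was the same.

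Atf3 encodes a stress-induced member of the ATF branch that can repress its targets as a homodimer. Its untreated arrays read -0.0628, 140.4 and 5.95, its 1 h arrays 325, 106 and 322, and its 2 h arrays 189, 7.50 and 213. Untreated replicates 1 and 3 were below noise, and 2 h replicate 2 was just above it. The highest untreated array lay above the lowest 1 h array. The log2 difference was 1.79 ± 0.72 at 1 h against untreated (unadjusted p = 0.0377, adjusted p = 1 by limma), between 1.44 without untreated replicate 1 and 2.40 without untreated replicate 2. At 2 h against untreated it was 0.92 ± 0.72, with 0.53 without 2 h replicate 3 and 1.63 without 2 h replicate 2.

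Batf encodes a factor that, with JUN proteins and IRF4, acts in class switching of B cells. It varied little, reading 255, 291 and 273 on untreated arrays, 249, 342 and 225 on 1 h arrays, and 319.8, 272 and 345 on 2 h arrays. It did not follow Fos or Junb, since 1 h replicates 1 and 3, the highest arrays for those genes, were the lowest for Batf. The log2 differences were -0.02 ± 0.15 at 1 h against untreated, 0.16 ± 0.15 at 2 h against untreated and 0.18 ± 0.15 at 2 h against 1 h. Their 95% intervals were -0.36 to 0.32, -0.18 to 0.50 and -0.16 to 0.52.

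The small MAF proteins have no activation domain and work with the partner they bind. Maff read 4.03, 31.6 and 0.889 on untreated arrays, 62.3, 25.9 and 60.0 on 1 h arrays, and 53.2, 7.20 and 65.5 on 2 h arrays. The lowest 3 arrays were again untreated replicates 1 and 3 and 2 h replicate 2. Its log2 difference was 0.69 ± 0.30 at 1 h against untreated, between 0.56 without untreated replicate 3 and 0.90 without untreated replicate 2. At 2 h against untreated it was 0.53 ± 0.30, with 0.34 without 2 h replicate 3 and 0.85 without 2 h replicate 2. A second probe was dim, at -0.103 to 13.0, and differed by 0.14 at 1 h. The mean of both Maff probes differed by 0.42 at 1 h and 0.32 at 2 h against untreated. Mafk was close to noise, above it on 4 of 9 arrays. Its untreated arrays read -3.01, 16.04 and 0.378, its 1 h arrays 0.165, 7.18 and 15.9, and its 2 h arrays 2.44, -4.50 and 32.7. Its log2 differences were 0.09 ± 0.24 at 1 h and 0.11 ± 0.24 at 2 h against untreated.

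Set against untreated cells, the 1 h arrays address the early response of AP-1 transcripts to receptor crosslinking. By mean, 7 of 10 genes were higher at 1 h, against 48.6% of all features, and the median log2 difference of the 10 was 1.05, against -0.00470 over all features. Fos, Fosb, Fosl2, Junb and Atf3 were higher by 1 or more on the log2 scale (5 of 10, against 0.389% of features), and 0 of 10 were lower by that much, against 0.0478%. None passed the test: limma called 0 of 10, as it called 0% of all features, with 2 of 10 (Fos and Atf3) at an unadjusted p under 0.05 against 1.3% of features. For 0 genes did the 1 h arrays lie wholly above or below the untreated ones, while 2.64% of features were wholly higher and 2.38% wholly lower. Means were 209 ± 141 at 1 h against 42.4 ± 47.6 untreated for Fos (SD, n = 3), 266 ± 230 against 23.1 ± 25.8 for Fosb, and 1391 ± 801 against 445 ± 535 for Junb. They were 354 ± 91.8 against 114 ± 195 for Fosl2 and 251 ± 125 against 48.8 ± 79.4 for Atf3.

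Without the 3 arrays labelled replicate 2, limma called 7 of 10 genes at 1 h against untreated, against 7.33% of features: 6 higher, against 3.94%, and 1 lower, against 3.39%. Those arrays were left out because of their values, these genes included, so such p-values are too small and are given as a description. The log2 differences were then 3.36 for Junb, 3.04 for Fosl2, 2.95 for Fosb, 2.82 for Atf3, 2.37 for Fos, 1.08 for Maff and -0.75 for Jun, with adjusted p from 4.96e-08 (Fosb, Atf3) to 0.00337 (Jun). Jund (0.30), Mafk (0.24) and Batf (-0.13) had adjusted p = 0.309, 0.595 and 0.649. With only untreated replicate 2 and 2 h replicate 2 left out, Fosl2 alone was called (2.95, adjusted p = 0.00422), against 0.676% of features (0.492% higher and 0.184% lower). With arrays weighted by their agreement with the fit, limma called 0 of 10, against 0.00683% of features.

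The 2 h arrays, set against untreated cells, address the later level of the same transcripts. By mean, 9 of 10 genes were higher, against 48.6% of features, and the median log2 difference was 0.36, against -0.00664. None differed by 1 or more, against 0.232% of features higher and 0.0342% lower by that much. The groups overlapped for all 10 genes, while 6.8% of features were wholly higher and 4.37% wholly lower. Limma called 0 of 10 and 0% of features, and 0 of 10 had an unadjusted p under 0.05, against 4.97% of features. Adjusted p-values were 0.908 to 0.976. Junb had 708 ± 495 at 2 h against 445 ± 535 untreated, and Fos 91.5 ± 68.5 against 42.4 ± 47.6 (SD, n = 3). Without the 3 arrays labelled replicate 2, 7 of 10 were called, against 34.8% of features, with the same reservation (6 higher, against 15.7%, and 1 lower, against 19%). These were Fosl2 (2.70), Junb (2.50), Atf3 (2.25), Fos (1.47), Maff (1.06), Fosb (0.74) and Jun (-1.08). Leaving out only untreated replicate 2 and 2 h replicate 2, it called 4 of 10 (Fosl2, Atf3, Maff and Jun), against 8.98% of features (3 higher, against 3.78%, and 1 lower, against 5.19%). With array weights 7 of 10 were called, against 33.5% of features. Fosl2 (2.32), Junb (2.26), Atf3 (2.00), Fos (1.26), Maff (0.91) and Batf (0.27) were higher, against 15% of features, and Jun (-0.91) lower, against 18.5%. Both comparisons with untreated share the untreated arrays.

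Between the times, Fosb, Fosl2 and Junb were lower at 2 h than at 1 h by 1 or more on the log2 scale (3 of 10, against 0.116% of features, with 0.171% higher by that much), at -1.44 ± 0.79, -1.09 ± 0.91 and -1.07 ± 0.94. By mean 6 of 10 were lower, against 51.4% of features, with a median of -0.49, against -0.00614. Limma called 0 of 10 and 0% of features (adjusted p = 0.805 to 0.999 for the 10 genes), with 0 of 10 at an unadjusted p under 0.05, against 6.84% of features. Wholly lower groups were found for Fosl2 (1 of 10, against 4.43% of features) and wholly higher ones for 0 of 10, against 6.93%. Single arrays moved these values: without 2 h replicate 2, Fosl2 had -0.25 and Junb -0.25, and without 1 h replicate 2, Junb had -1.68. Without the 3 arrays labelled replicate 2, 5 of 10 were called, against 25.7% of features (13.7% lower and 12.1% higher). Fosb (-2.20), Fos (-0.90), Junb (-0.86) and Atf3 (-0.58) were lower and Batf (0.41) higher. Fosl2 and Maff had -0.34 and -0.03 in that fit (adjusted p = 0.14 and 0.906). Without only untreated replicate 2 and 2 h replicate 2, it called 0 of 10 and 0% of features. Array weights called 0 of 10, against 0.171% of features (0.0342% lower and 0.137% higher).

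**Figure D2:**
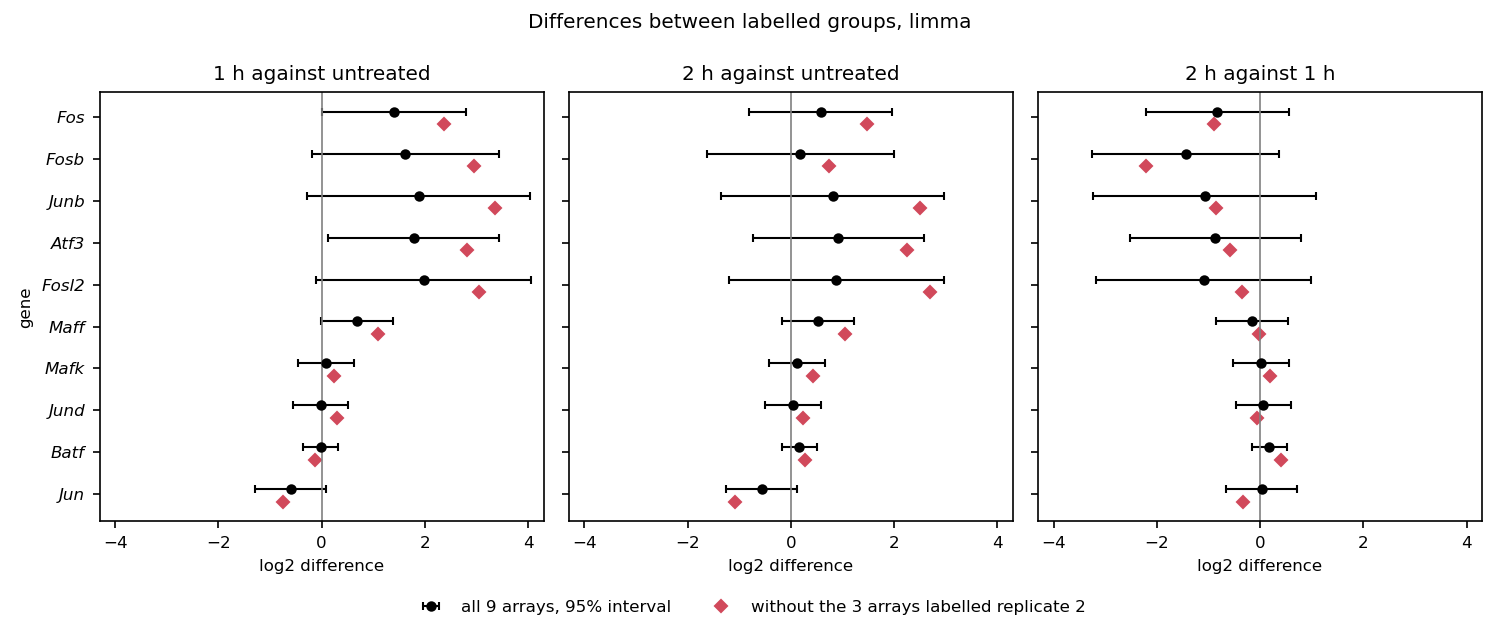
Log2 differences of the 10 genes in the 3 comparisons; black points and bars are limma's estimates from all 9 arrays with 95% intervals, and red diamonds the estimates without the 3 arrays labelled replicate 2. Fos and Atf3 are the genes whose interval lies above 0 at 1 h, and their adjusted p was 1.

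The spread of these genes over the 9 arrays was large, and the labels held the smaller part of it. Junb, Fosl2, Fosb, Atf3 and Fos ranked 22, 23, 44, 59 and 129 of 14640 features by the SD of the log2 level (1.42, 1.41, 1.24, 1.18 and 0.96, against a median of 0.21), so 5 of 10 were in the top 1%. The share of that variance that lay between labels was 32.9% for Junb, 36.8% for Fosl2, 38.4% for Fosb, 42.9% for Atf3 and 40.2% for Fos, against a median of 19.1% over all features. It was 42.2% for Maff, 39.4% for Jun, 23.1% for Batf, 3.34% for Mafk and 1.07% for Jund.

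**Figure D3:**
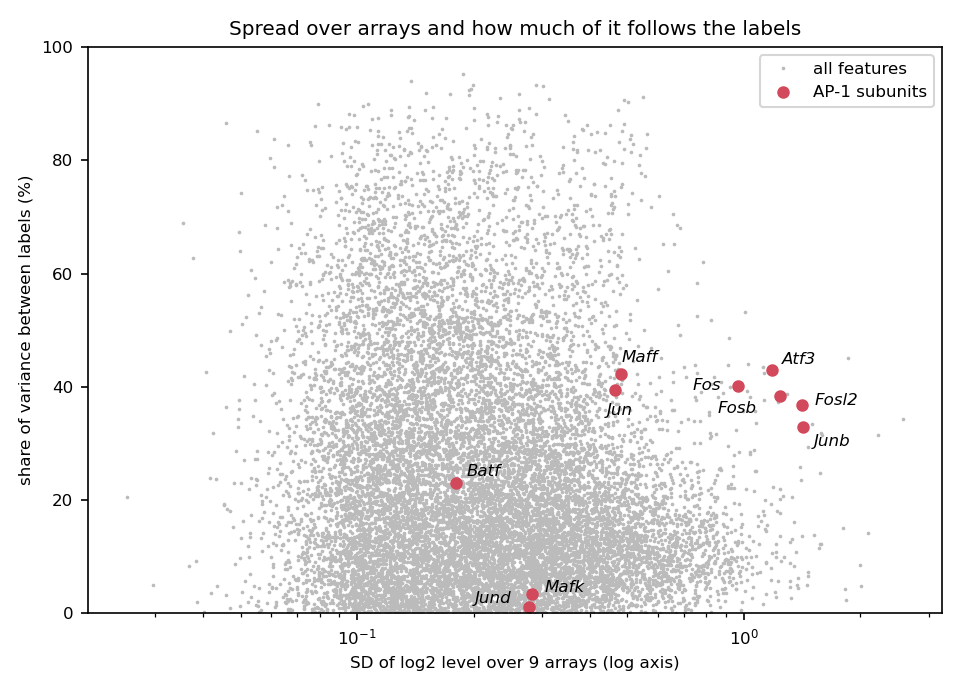
SD of the log2 level over the 9 arrays (log axis) against the share of variance between the 3 labels, for 14640 features (grey) and the 10 AP-1 genes (red). Fos, Fosb, Fosl2, Junb and Atf3 lie far to the right at shares of 32.9% to 42.9%, and Jund and Mafk near the bottom.

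Of the 10 genes, 6 varied together, and they were set apart with their values known. Among Fos, Fosb, Fosl2, Junb, Atf3 and Maff, the 15 pairwise Pearson r over the 9 arrays ran from 0.607 (Fosb with Fosl2) to 0.987 (Junb with Atf3). The r of Jun with these 6 genes was -0.857 to -0.209 and that of Batf -0.563 to 0.214. For Jund it was 0.334 to 0.648 and for Mafk 0.256 to 0.663. The arrays fell into high and low ones and the genes share all 9 of them, so each r is a description only. The mean centred log2 level of the 10 genes was -0.80, 0.24 and -0.69 on untreated arrays, 0.77, -0.17 and 0.80 on 1 h arrays, and 0.25, -0.78 and 0.38 on 2 h arrays.

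**Figure D4:**
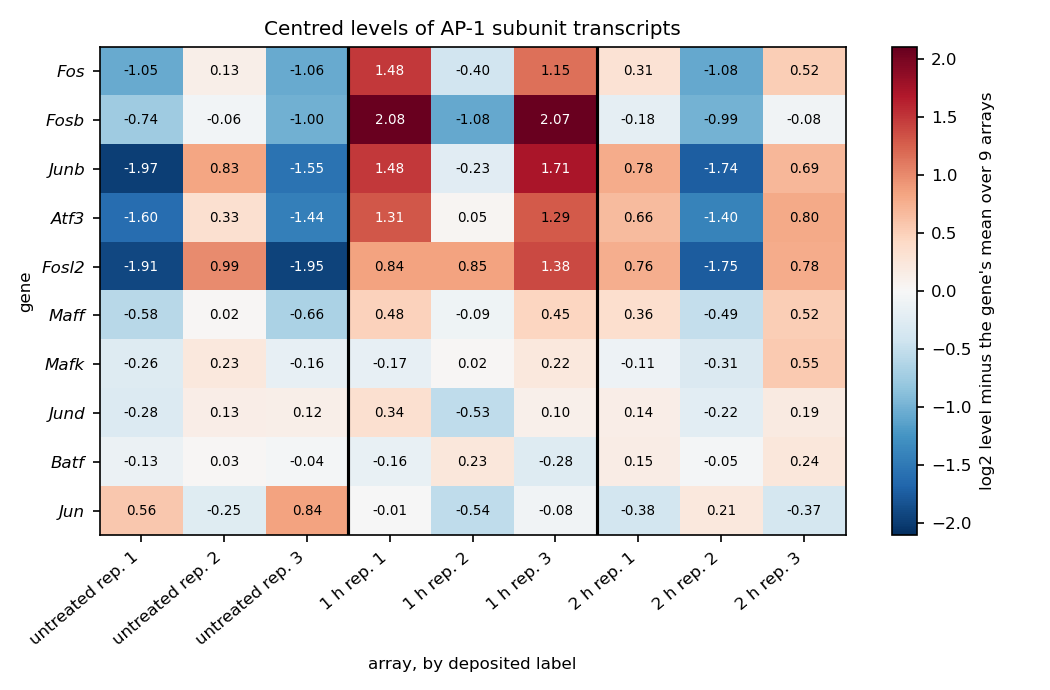
Log2 level of each gene (rows) on each array (columns, by label), minus the gene's mean over the 9 arrays; red is higher and blue lower. Fosb stands out on 1 h replicates 1 and 3 (2.08 and 2.07), Fosl2 is as high on 1 h replicate 2 (0.85) as on 1 h replicate 1 (0.84), and Jun is highest on untreated replicate 3 (0.84).

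Genes outside the family with the most similar log2 pattern over the 9 arrays differed between members. For Junb they were Plk3, Nfkbid and Egr1 (Pearson r = 0.993, 0.992 and 0.986), and for Atf3 Nfkbid, Ppp1r15a and Cd69 (0.991, 0.989 and 0.985). Fosl2 was followed by Dusp2, Egr2 and Rilpl2 (0.997, 0.989 and 0.988), Fos by Bhlhe40, Coq10b and Tgoln1 (0.988, 0.986 and 0.98) and Fosb by H2ac6, Zfp36 and Med7 (0.98, 0.979 and 0.974). Maff was nearest to Socs4, F2r and Cstf3 (0.984, 0.978 and 0.973). Jun was nearest to Aurkc, Fam168a and Irgm2 (0.984, 0.977 and 0.976), and Batf to Med8, Abhd17c and Ccnq (0.983, 0.981 and 0.981). Jund and Mafk had their highest r with Cmtm8 (0.938) and Mrgprg (0.963). These genes were picked as the highest of all named features over 9 arrays, so each r is a description only. Some varied little, with a log2 range over the arrays of 0.39 for Mrgprg, 0.43 for H2ac6 and 0.54 for Aurkc, against 3.81 for Egr1. The mean level of the 10 genes was tracked by Nfkbid, Egr4, Errfi1, Plk3 and Ccno (0.998 to 0.984) and ran opposite to Timm29, Zfp39, Zfp94, Fam160b1 and D230025D16Rik (-0.98 to -0.96).

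Other genes of the pathway were taken from 8 lists with 117 entries, of which 85 were kept in the fit, and limma called 0 of them in each comparison. Among other AP-1 and MAF subunits, 5 of 11 were kept and the median log2 difference at 1 h against untreated was 0.07. Mafg, a small MAF, had 0.52 ± 0.26, and Atf2, a partner of JUN, 0.10 ± 0.29. Of the CNC and BACH partners, 4 of 6 were kept. Nfe2l1 had 0.53 ± 0.36 and the repressor gene Bach1 0.43 ± 0.42. Bach1 read 176, 164 and 231 on 1 h arrays, against 72.7, 271 and 89.9 on untreated arrays. The Bach1 groups overlapped through untreated replicate 2.

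The MAPK cascade that feeds AP-1 had a median of -0.01 over 16 kept genes of 22, with 7 higher and 9 lower at 1 h against untreated. Map3k1, a kinase upstream of JNK, had -0.32 ± 0.43 and Map2k2, an ERK kinase, 0.02 ± 0.17. Activators at the Fos and Jun promoters (12 kept of 16) had a median of 0.02, with Mef2c at -0.10 ± 0.15 and Stat3 at 0.35 ± 0.31. Of those, Srf and Crem, named after their values were seen, split the arrays as Junb and Fosb did. Srf, the factor of the serum response element, read 1149.6, 634 and 1826 at 1 h against 465, 1231 and 419 untreated. Crem, a CREB relative with an inducible repressor form, read 820.3, 67.1 and 801 at 1 h against 93.6, 363 and 70.3 untreated.

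Among partners of BATF and AP-1 on DNA, 8 of 9 were kept. Irf4, the factor that joins BATF and JUN on composite sites, had 1.39 ± 0.96 at 1 h against untreated (3167, 2502 and 3956 at 1 h against 591, 4799 and 543 untreated), and Irf8 had -0.13 ± 0.22. Targets of AP-1 were higher at 1 h for 14 of 17 kept genes, against 48.6% of features, with a median of 0.24. Cd69, an early activation receptor, had 1.69 ± 0.68, and Cd44, an adhesion receptor, 0.37 ± 0.63. Some of those counted as higher were dim and differed by less than their SE, such as Ier3 (0.02 ± 0.13), Ccnd1 (0.08 ± 0.09) and Hmox1 (0.15 ± 0.17). Between the times 14 of the 17 kept targets were lower at 2 h than at 1 h, against 51.4% of features, with a median of -0.11. At 2 h against untreated 14 of the 17 were still higher, against 48.6% of features, with a median of 0.20. The direction between the times was not particular to targets. Of the 12 kept activators at the Fos and Jun promoters, 11 were lower at 2 h than at 1 h, with a median of -0.11. Genes listed for the turnover of AP-1 mRNA and protein (12 kept of 13) had a median of 0.03. Zfp36, which encodes the mRNA decay protein tristetraprolin, had 3069, 1136 and 3371 at 1 h against 942, 1397 and 1036 untreated (1.01 ± 0.39), and Zfp36l1 had 0.41 ± 0.27. Heat shock and handling genes (11 kept of 16) were higher at 1 h for 9 of 11, against 48.6% of features, with a median of 0.17. Hspa8 had 0.17 ± 0.11 and Hspd1 0.28 ± 0.63.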

How the data were processed

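Amplified, biotinylated RNA of 9 samples was measured on Illumina bead arrays, per the labels' protocols. For 45281 probes the authors deposited linear intensities, 31.8% of them below 0, which background subtraction gives. Their software and normalization are not given in the sources used here. A second table has 9 columns whose names match no single label and was not used, so the planned neqc correction was not run. Probes above noise (upper 0.05 tail of values below 0 mirrored around 0) on at least 3 arrays were kept (20983), and the probe with the highest mean log2 level stood for a gene. Group means of log2(intensity + 50) were fitted with limma 3.58.1 in R 4.3.3 (6 residual degrees of freedom), tests were two-sided, and Benjamini-Hochberg adjustment ran over 14640 features with calls at 0.05. No sequencing depth applies, and the number of arrays limits the precision. Promoter sequences and motif counts came from RefSeq windows. The members, lists and alternatives were chosen with earlier results of these data known. Named genes are the 10 members, Egr1, cell type markers, genes called in a list or, with none, its 2 brightest. Those with the highest r to each member, or the highest or lowest to their mean, are named too. Other list genes were named after their values were seen: Srf, Crem, Ier3, Ccnd1, Hmox1, Dusp1, Dusp5, Il10, Hsph1, Bag3, Hsp90aa1 and Dnajb1. Platform symbols were used, 3 list genes being found by a synonym. The scripts were tested on simulated data. Alternatives covered normalization, the offset, the filter, the probe per gene, a replicate block, array weights, the variance model and the arrays in the fit.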

Additional observations from a re-analysis of the deposited data

How the results depend on the processing

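The number of arrays and the wide spread within labels limit the precision, the added offset compresses differences of dim probes, and the planned neqc correction was not run because its columns name no sample. Limma called 0 features and 0 of the 10 AP-1 genes in each comparison with offsets of 16 or 100, no filter on dim probes, a filter on all 9 arrays, the mean of a gene's probes, trend and robust variance, only the 6 arrays of the 2 groups compared, or any 1 array left out (0 to 0). Quantile normalization also gave 0, but the deposited arrays already shared nearly 1 distribution (medians of 3.76 to 3.77), so it could change little. The mean of a gene's probes moved Fosl2 and Maff at 1 h to 0.67 and 0.42. Of 9 correlations between deviations of same-numbered arrays from their label means, 6 were below 0 (-0.79 to 0.57). Those of untreated with 1 h arrays were above 0 (0.57, 0.52 and 0.24), and all those with 2 h arrays were below 0. By number, 2 of 9 arrays had their best match in their own number. The label means include the arrays that stood apart, so these correlations cannot show whether arrays were paired. With the replicate block 0 features and 0 members were called. Array weights called 1 feature for 1 h against untreated, 4898 for 2 h against untreated and 25 between the times, 3462 by the F-test, and 7 members at 2 h. Without the 3 arrays labelled replicate 2 the counts were 1073, 5088, 3765 and 5136 features and 7, 7 and 5 members. Without untreated replicate 2 and 2 h replicate 2 they were 99, 1314 and 0 features (535 by the F-test) and 1, 4 and 0 members. These weights and omissions follow the values of the same arrays, so their p-values are too small.

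Of 615 member values under alternatives, 31 changed sign and 31 passed the threshold in the same direction. Jund at 1 h against untreated became 0.32 with array weights, 0.30 without the 3 arrays and 0.050 without the pair, and between the times it became -0.027 and -0.055 with the first 2 of these settings. Jun between the times became -0.24, -0.33 and -0.16 in the same order of settings. Batf at 1 h became 0.020 and Maff between the times 0.16 without the pair, and Mafk between the times became -0.070 with an offset of 16. With 1 array left out, ranges that crossed 0 were -0.20 to 0.23 (Jund), -0.17 to 0.086 (Batf) and -0.0084 to 0.24 (Mafk) at 1 h. At 2 h they were -0.018 to 0.47 (Fosb), -0.092 to 0.17 (Jund) and -0.14 to 0.29 (Mafk). Between the times they were -0.16 to 0.13 (Jun), -0.18 to 0.25 (Jund), -0.35 to 0.16 (Maff) and -0.23 to 0.20 (Mafk). Without the 3 arrays, Fosb and Mafk at 2 h had 0.74 and 0.44. The cause was not tested.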

Other observations

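The array labelled 1 h replicate 2 divided the genes of the pathway, and the genes below were chosen after their values were seen. Fosb (0.421), Crem (67.1) and the ERK phosphatase gene Dusp5 (28.6) were as low there as on untreated replicates 1 and 3 or lower, where Dusp5 had 29.7 and 26.6. Fosl2 (301) and Irf4 (2502) were near their other 1 h values, and the cytokine gene Il10 had 107, against 144 and 172 on 1 h replicates 1 and 3. Junb (482), Fos (52.2) and Atf3 (106) lay between. On the same array the chaperone genes Hspd1 (2549.9) and Hsph1 (898) and the co-chaperone gene Bag3 (75.7) had their highest values, against 565 to 1596, 197 to 482 and 17.7 to 43.8 on the other 8 arrays. Of 11 heat shock genes kept in the fit, 5 were highest on this array, and 6 were not. Among those 6, Hsp90aa1 had 718 there and up to 891 at 2 h, and Dnajb1 had 967 there and 1548 and 1384 on the other 1 h arrays. Summed B cell markers were lowest there, at 6506. The part of RNA quality or cell composition in this array was not tested.

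Among phosphatase genes that end MAPK signalling, also chosen after their values were seen, Dusp1 had 239.8, 93.3 and 200.2 at 1 h against 83.3, 129.9 and 64.6 untreated, a log2 difference of 0.64 ± 0.31 (limma, adjusted p = 1). Dusp5 had 519.8, 28.6 and 469 at 1 h against 29.7, 210.0 and 26.6 untreated, at 1.29 ± 0.85. Neither passed the test, and in both the highest untreated array was replicate 2.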
